A study of Mus musculus with 12 samples.

Results

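The regions described here are stretches of mRNA that carried a 5-methylcytosine (m5C) antibody peak at 18 months of age in genes that had no peak at 3 months. The peaks of 6 lists, 1 per immunoprecipitated (IP) library, were joined into 24501 regions wherever they touched or overlapped on a strand. A region was kept if 3 of 3 aged lists and 0 of 3 young lists placed a peak there and it lay in a protein-coding gene without any young peak. This left 318 regions in 303 genes, on 20 chromosomes. The regions were selected on the presence of listed peaks, so their presence at 18 months and absence at 3 months are descriptions and carry no test.

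All tissue was hippocampus of female wild-type C57BL/6 mice, at 18 months after natural aging or at 3 months. RNA fragments were captured with a bead-bound m5C antibody, and input libraries were made without this step. Nothing in the labels ties the 3 samples per age to separate animals, so the spread behind each p-value may be technical. The aged lists held 14008 to 15189 peaks and the young lists 8549 to 10392, over 6342 to 6777 and 4894 to 5442 genes. The reads behind each list are unknown, as are the limits that depth sets on a missing peak.

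5-Methylcytosine is a methylated base of RNA that is placed in mRNA mainly by the methyltransferase NSUN2 and is bound by proteins such as ALYREF and YBX1, which act in mRNA export and stability. An antibody peak marks a fragment that was enriched over input. It does not resolve the base, and whether a peak is called also depends on how abundant the transcript is. A gene without a peak is therefore a gene in which no enrichment was listed, not one shown to be unmethylated.

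Sequence could be shown for regions that reach an annotated gene start or hold a microRNA. Ranked by the lowest of its 3 scores, the leading region outside predicted genes lay in Hoxb3, a homeobox gene. It ran on chromosome 11 from 96316812 to 96317682 on the plus strand and held the hairpin of miR-10a, a microRNA encoded in the Hoxb cluster. The hairpin occupied bases 96317165 to 96317274 (mm10, as in the GRCm38.p6 tables of RefSeq). Both mature arms are given because they lie inside the peak of each aged list, with the seed (bases 2 to 8) in capitals.
miR-10a-5p: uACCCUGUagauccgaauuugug
miR-10a-3p: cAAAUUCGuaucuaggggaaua
The peak scores in Hoxb3 were 725, 1108 and 844 in aged replicates 1, 2 and 3, and no young list had a peak in the gene. The 3 peaks began at the same base, 353 bases before the hairpin, and were 871, 577 and 712 bases wide. Each covered the whole hairpin. Of the 1005 hairpins in the table, some lay in 21 of the 24501 regions on the same strand (0.0857%), and the Hoxb3 region was the only 1 of the 318 (0.314%). A peak over a hairpin does not tell whether the enriched RNA was the microRNA precursor or the Hoxb3 transcript around it.

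**Figure D1:**
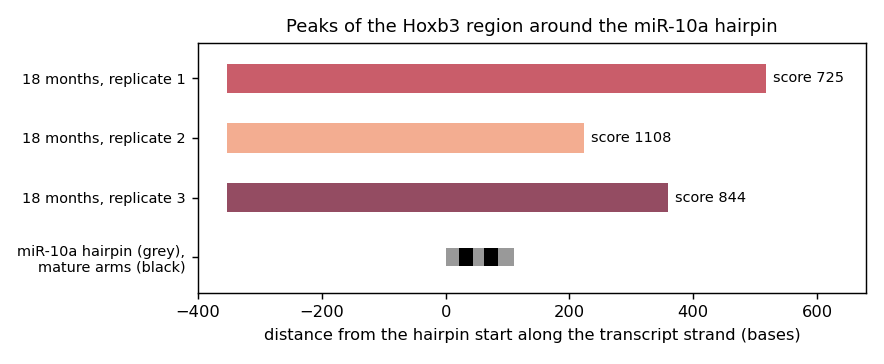
Extent of the Hoxb3 peak in each aged list (coloured bars, peak score at the right) by distance in bases from the start of the miR-10a hairpin, with the hairpin in grey and its mature arms in black. All 3 bars start at the same base and cover the hairpin, and they differ in where they end.

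Of the 318 regions, 48 (15.1%) reached the window from 250 bases before to 50 bases after an annotated start of their gene, against 61 of 674 (9.05%) 18-month-only regions in genes marked in all 6 lists. For the 674, and for the 4.30% of all regions below, a start of any protein-coding gene on the same strand counted, a wider measure. Start windows were found for 232 of the 303 genes. The edge of 20 regions (6.29%) was the annotated start itself, which held for 4.30% of all regions. The stretches below are from the start windows of RefSeq (GRCm38.p6), in the direction of the transcript, for the named genes in whose windows some bases were covered in all 3 aged lists. Capitals mark the bases covered by a peak in all 3 aged lists.
Prkaca, chr8:83972948-83973027, plus strand: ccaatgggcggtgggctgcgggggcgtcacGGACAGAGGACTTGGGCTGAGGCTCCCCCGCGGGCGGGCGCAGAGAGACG
Syn1, chrX:20920869-20921034, minus strand: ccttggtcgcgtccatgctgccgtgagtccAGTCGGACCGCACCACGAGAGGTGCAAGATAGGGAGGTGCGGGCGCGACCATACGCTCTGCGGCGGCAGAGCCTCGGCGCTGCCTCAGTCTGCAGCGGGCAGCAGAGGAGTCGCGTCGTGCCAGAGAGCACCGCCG
Ube2h, chr6:30304490-30304569, minus strand: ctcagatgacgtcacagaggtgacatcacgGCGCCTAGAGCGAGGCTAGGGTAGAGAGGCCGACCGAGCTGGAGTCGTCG
Ahcyl2, chr6:29768413-29768492, plus strand: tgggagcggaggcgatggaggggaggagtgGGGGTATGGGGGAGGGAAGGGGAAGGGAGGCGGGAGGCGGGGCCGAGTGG
Ndufb10, chr17:24724374-24724508, minus strand: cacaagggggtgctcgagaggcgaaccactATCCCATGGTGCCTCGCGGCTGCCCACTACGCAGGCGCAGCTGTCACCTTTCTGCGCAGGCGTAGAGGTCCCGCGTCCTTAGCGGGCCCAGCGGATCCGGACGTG
Ndufs3, chr2:90904672-90904857, minus strand: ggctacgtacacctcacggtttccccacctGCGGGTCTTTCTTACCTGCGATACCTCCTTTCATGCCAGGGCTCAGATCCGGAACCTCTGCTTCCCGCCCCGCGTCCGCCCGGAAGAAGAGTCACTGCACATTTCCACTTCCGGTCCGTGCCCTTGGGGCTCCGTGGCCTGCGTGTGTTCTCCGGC
Camk1, chr6:113343873-113344008, minus strand: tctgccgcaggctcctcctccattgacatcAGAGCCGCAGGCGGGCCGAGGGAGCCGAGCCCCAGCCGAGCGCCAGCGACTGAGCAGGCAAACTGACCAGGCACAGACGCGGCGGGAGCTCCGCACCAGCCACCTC
Dctn3, chr4:41723114-41723200, minus strand: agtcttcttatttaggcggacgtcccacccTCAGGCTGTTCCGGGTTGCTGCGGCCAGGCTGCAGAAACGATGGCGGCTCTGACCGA
Grin2d, chr7:45866632-45866931, minus strand: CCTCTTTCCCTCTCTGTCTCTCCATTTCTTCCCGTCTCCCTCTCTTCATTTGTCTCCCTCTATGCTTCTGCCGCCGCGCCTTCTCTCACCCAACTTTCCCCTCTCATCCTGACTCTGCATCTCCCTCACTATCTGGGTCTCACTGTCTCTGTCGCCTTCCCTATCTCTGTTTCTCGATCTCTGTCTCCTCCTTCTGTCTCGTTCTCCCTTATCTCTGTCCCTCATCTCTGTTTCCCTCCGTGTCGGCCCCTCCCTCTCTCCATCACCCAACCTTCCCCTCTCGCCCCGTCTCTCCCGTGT
In Prkaca, Ube2h and Ahcyl2 the capitals begin at the annotated start. In Syn1, Ndufb10, Ndufs3, Camk1 and Dctn3 the peaks reached upstream of it. The share of cytosine, the base that carries the mark, differed widely among the covered bases inside these windows. It was 45.7% in Grin2d, 37.7% in Camk1, 37.2% in Ndufs3, 36.2% in Ndufb10 and 30.9% in Syn1. In Dctn3 it was 28.1%, in Prkaca 28%, in Ube2h 24% and in Ahcyl2 8%, where 68% of the bases were G. These are parts of the regions and differ in length, with 300 bases in Grin2d and 50 in Prkaca, Ube2h and Ahcyl2. The Grin2d window belongs to an annotated start inside the gene span and was covered over all 300 bases.

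Both motifs linked to m5C in mRNA were searched on both strands of the 300-base windows. CNGGG, the context described for NSUN2, was on the transcript strand of 42 of the 48 windows (87.5%) and on the other strand of 43 (89.6%), against 83.1% and 82.1% of 21263 windows of protein-coding genes. CTCCA, the motif of NSUN6, was on the transcript strand of 17 windows (35.4%) and on the other strand of 22 (45.8%), against 39.8% and 40.9%. A CTCCA followed by GGG holds both motifs. These shares describe windows in which 250 of 300 bases lie upstream of the annotated start.

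The count of 318 was 1.3% of all regions, and it made up 25.3% of the 1258 regions (5.13%) listed 3 times at 18 months and never at 3 months. The other aged-only regions lay mostly in genes with young peaks elsewhere: 115 in genes with a peak in 1 young list, 139 in 2, and 673 in 3, while 13 lay outside gene spans. In the opposite direction, 63 regions (0.257%) were found in all young lists in genes without an aged peak, of 156 young-only regions (0.637%). At the level of genes, 404 of 9530 (4.24%) had a peak in 3 aged and 0 young lists. Of these, 300 had it in a shared region. The reverse held for 77 genes (0.808%).

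The rule draws its limit at 3 aged lists. Just outside it, 663 regions in genes without a young peak were listed in 2 aged lists and 2024 in 1. Their median scores, where listed in 2, were 81.1, 76.9 and 78.8 in aged replicates 1, 2 and 3. The medians of the 318 regions' peaks were 104, 99.7 and 94.1, and those of the 115 regions in genes with 1 young list were 118, 108 and 107. The missing list was replicate 1 for 182 of the 663, replicate 2 for 243 and replicate 3 for 238.

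Presence could be looked for in a list that a given choice had not used. The rule was applied to 5 lists at a time, with regions rebuilt, and the chosen regions were looked for in the sixth. Of the regions chosen without aged replicate 1, 2 or 3, 63.5% (317 of 499), 56.7% (318 of 561) and 57.1% (317 of 555) had a peak in the left-out aged list. Of those chosen without young replicate 1, 2 or 3, 24.7% (118 of 477), 16.0% (64 of 399) and 30.7% (166 of 541) had a peak in the left-out young list. All 3 aged shares lay above all 3 young ones, at 59.1% ± 3.83 against 23.8% ± 7.36 (SD, n = 3 each), a difference of 35.3 percentage points (two-sided exact permutation test, p = 0.1, which is the minimum with 3 lists per age). The regions found in a left-out aged list were in essence the 318 themselves. Those not found were the 182, 243 and 238 listed in 2 aged lists, so the aged shares restate counts given above. The choices also share lists and regions, so neither SD nor p, here and below, measures a spread between independent sets. Across the 6 choices the same lists serve both to choose and to look. The comparison is therefore a description and no independent support for the 318 regions.

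With the ages exchanged the young lists had the higher shares. Regions chosen as young-only in genes without an aged peak were found in 22.2% ± 4.89 of cases in a left-out aged list and in 53.7% ± 0.263 in a left-out young list (SD, n = 3 each, exact permutation p = 0.1). In the left-out young lists 63 regions were found each time, of 118, 117 and 117 chosen. The SD of 0.263 therefore reflects only the number chosen, not agreement between independent lists. Regions with a peak in both remaining lists of an age, whatever the other age showed, were found in 84.5% ± 1.93 of cases in the third aged list and in 82.1% ± 5.98 in the third young list (exact permutation p = 0.8). Among the genes rather than the regions, a left-out aged list held a peak for 68.3% ± 2.97 and a left-out young list for 30.7% ± 9.73 (exact permutation p = 0.1).

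**Figure D2:**
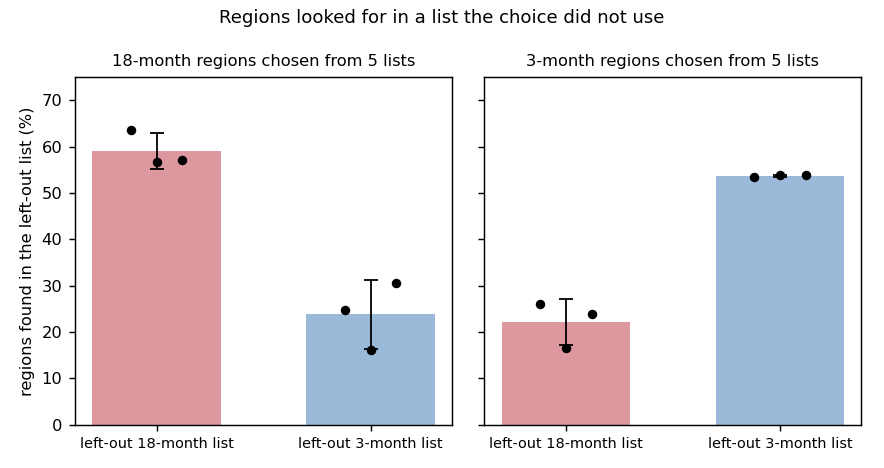
Share of chosen regions (%) that had a peak in the list left out of the choice, for 18-month regions in genes unmarked at 3 months (left panel) and 3-month regions in genes unmarked at 18 months (right panel). Bars are means, error bars SD, and dots the 3 left-out lists. At 18 months 56.7% to 63.5% of the 18-month regions were found again, against 16.0% to 30.7% at 3 months. The choices share lists and regions, so the SD is not one between independent sets.

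Aged lists were longer, and the balance between the ages turned round with lists of equal length but not with an equal score limit. A cut to equal length sets unequal score limits. It kept young replicate 2 whole, down to a score of 50, while a peak with a score of 119.5 in aged replicate 1 was dropped. Keeping the 8549 best-scored peaks of each library, as many as the shortest list held, left 85 regions at 18 months in genes unmarked at 3 months and 147 of the opposite kind, against 318 and 63 with full lists. Counting the opposite kind under such limits was chosen after the data were seen. Of the 318 regions, 56 were among the 85. With the aged lists shortened and the young lists kept whole, those 56 were the count, against 230 of the opposite kind. The direction of both changes is largely fixed by such a cut, which only takes aged peaks away. With a score of at least 100 required of every peak the counts were 293 and 19, and 71 of the 318 were among the 293. In aged replicates 1, 2 and 3, 127, 146 and 124 of the 318 regions were within the length of the shortest list. The share found again in a left-out list at equal length was 54.2% in aged and 29.0% in young lists (exact permutation p = 0.1).

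**Figure D3:**
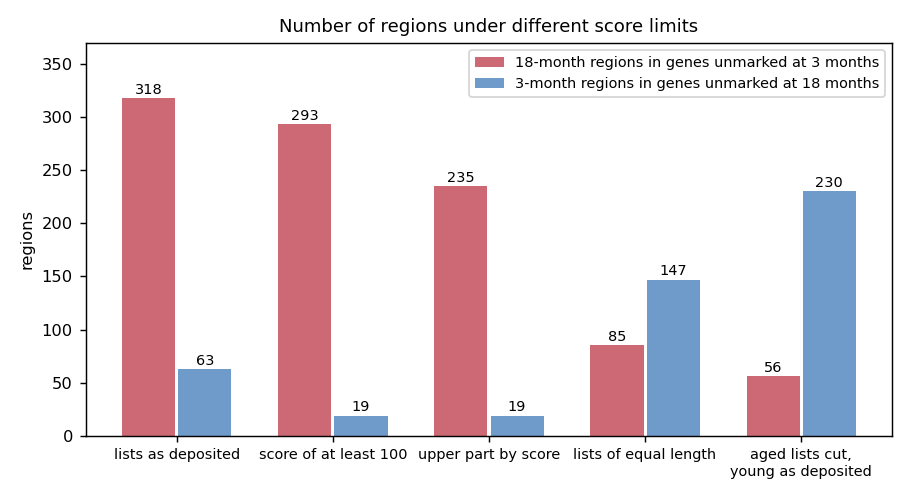
Number of 18-month regions in genes unmarked at 3 months (red) and of 3-month regions in genes unmarked at 18 months (blue) under 5 limits on the lists. The 18-month number is the higher of the pair with the deposited lists (318 and 63) and lower with lists of equal length (85 and 147).

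Scores were mostly low. The lowest of a region's 3 scores had a median of 69.2 and an interquartile range of 58.2 to 97.0, where 50 was the lowest score listed. All scores were 100 or more in 71 regions (22.3%), 200 or more in 14 and 300 or more in 8. The order of regions by score was only partly shared, with Spearman's rho of 0.427, 0.387 and 0.393 between pairs of aged lists over the 318 regions, which share their choice and the listing limit. Median scores of the 674 18-month-only regions in marked genes were 120.45, 109.95 and 97.6 in aged replicates 1, 2 and 3, and those of regions present in all 6 lists were 604, 539.6 and 527. The last value is higher than that of the 318 regions in each list, which the choice in part fixes.

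Among the members with the highest scores, Shisa7, Syn1 and Slitrk5 act at synapses. This is no trait of the members, since synaptic groups lay close to the share over all genes with a peak, as given below. Shisa7, an auxiliary subunit of synaptic receptors, scored 676, 358 and 421 in aged replicates 1, 2 and 3 (chromosome 7 from 4836044 to 4836878). Syn1, a phosphoprotein that tethers synaptic vesicles, scored 237, 1079 and 261 (chromosome X from 20920413 to 20921004), so that replicate 2 stood above the others. Slitrk5, a synaptic adhesion protein, scored 420.04, 182 and 326 in a region of 4198 bases within a gene span of 8030 bases. Prkaca, which encodes a catalytic subunit of kinase A, scored 448, 519.5 and 328 at its gene start. The highest score came from replicate 1 in Shisa7 and Slitrk5 and from replicate 2 in Syn1 and Prkaca.

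Other high-scoring members act in RNA handling, membrane traffic and metabolism. Prrc2a, an RNA-binding protein that reads N6-methyladenosine (m6A), scored 753, 404 and 439 (chromosome 17 from 35155366 to 35157207). Srsf6, a splicing factor, scored 245, 215 and 367, and Zfp3, a zinc finger protein, 317, 211 and 369. In these genes the lowest value came from replicate 2. Trappc4, a subunit of the TRAPP vesicle-tethering complex, scored 372, 375 and 313, and Rtn3, a reticulon of the endoplasmic reticulum, 297, 422 and 778. Tmem150b, a membrane protein, scored 335, 1651 and 256, with replicate 2 apart. Adra1d, the alpha-1D adrenergic receptor, scored 189.8, 365 and 191, Eno1, a glycolytic enolase, 188, 458 and 435, and Morn1 238, 225 and 200.4. Eno1 has processed pseudogenes, so the origin of its reads is uncertain. The lowest score of each of these members lay above the upper quartile of 97.0 over all 318 regions, as their choice by that score fixes.

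**Figure D4:**
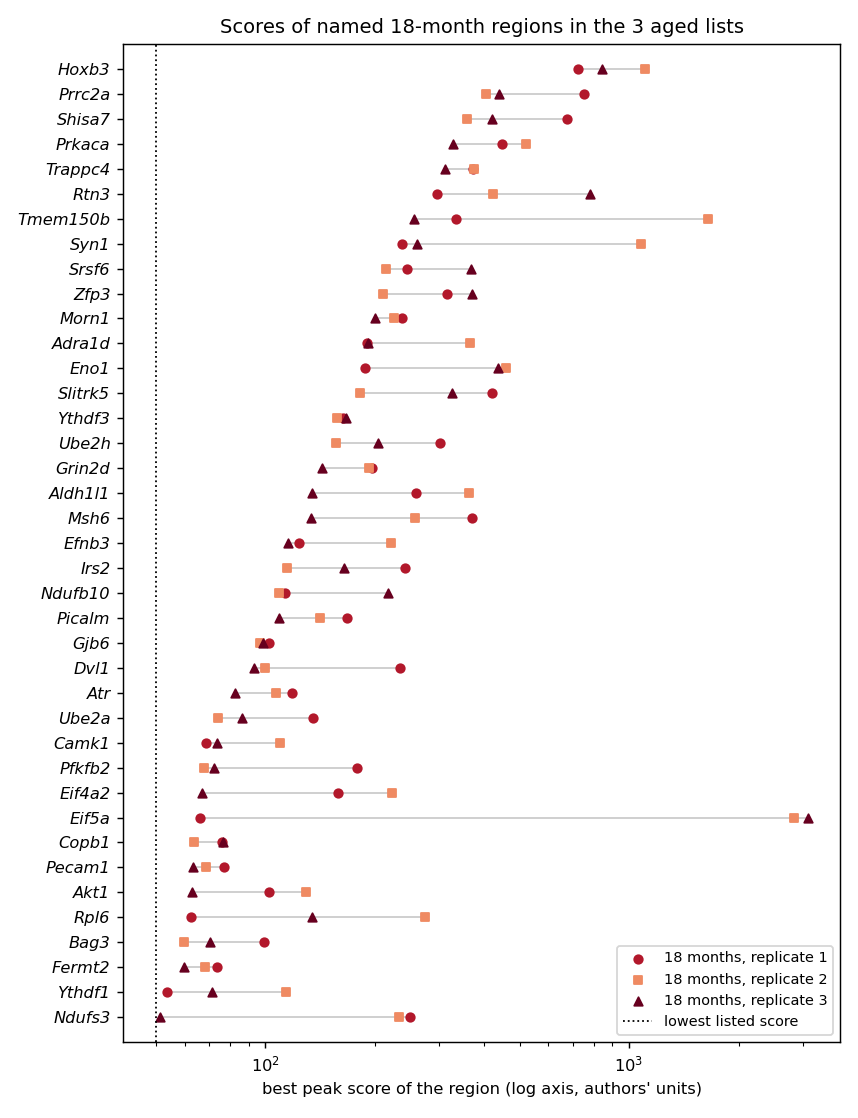
Best peak score in each of the 3 aged lists (symbols, log axis) for named members, ordered by their lowest score; for a gene with 2 regions the one with the higher lowest score is shown. The dotted line is the lowest listed score, 50, and scores run from 51.2 in Ndufs3 to 3100 in Eif5a, whose replicate 1 is at 66.3.

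Some members rested on uneven scores. Eif5a, a translation factor, had 66.3 in aged replicate 1 but 2834 and 3100 in replicates 2 and 3 (chromosome 11 from 69916712 to 69917341). It also has pseudogenes. Ndufs3, a subunit of respiratory complex I, had 249.6, 233 and 51.2. In Ndufs3 the score of replicate 3 lay just above the lowest listed value. The members nearest that value in their lowest list were Hic2 at 50.01, Tbc1d2 at 50.3, Zbtb41 and Ubtfl1 at 50.4, and Mn1 at 50.5. The Hic2 region also lay in the span of Tmem191c, which had a peak in 1 young list.

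Functional groups were read against the background that 303 of 9530 genes with a peak in any list (3.18%) held such a region. The lists had 20 to 40 genes each, or 8 to 14 for cell type markers. Synaptic groups lay close to that share: 1 of 31 presynaptic genes with a peak (3.23%, Syn1), 1 of 27 of the postsynaptic density (3.70%, Shisa7), 1 of 22 glutamate receptor genes (4.55%, Grin2d) and 0 of 16 GABA receptor and synthesis genes. In most of these groups many genes were marked at both ages, with 21 of the 31 presynaptic genes having a peak in all 6 lists. Grin2d, an NMDA receptor subunit, scored 196, 193 and 143 in aged replicates 1, 2 and 3, all below the Shisa7 values.

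Metabolic, translation and signalling groups had 2 or 3 such genes each. Of 24 oxidative phosphorylation genes with a peak, 3 held a region (12.5%), among them the complex I subunits Ndufb10 and Ndufs3. Ndufb10 scored 113, 109.4 and 217 at its gene start. In glycolysis it was 2 of 18 (11.1%), Eno1 and Pfkfb2, a kinase that sets the level of a glycolytic activator, with 178, 68.0 and 72.5. Of 28 translation factor and ribosomal protein genes, 3 (10.7%) held one: Eif5a, the helicase Eif4a2 with 158, 224 and 66.8, and the ribosomal protein gene Rpl6 with 62.6, 274 and 134. All 3 had their midpoint in the last 1000 bases of their gene spans, and all 3 have pseudogenes or close paralogs, which leaves the origin of their reads uncertain. Insulin, AKT and mTOR signalling had 2 of 22 (9.09%), the adaptor Irs2 with 242, 115 and 165 over 3989 bases and the kinase Akt1 with 102, 129 and 63.1. The kinase A, CREB and neurotrophin list had 2 of 24 (8.33%), Prkaca among them. These shares stand on 2 or 3 genes, and no test of the lists was made.

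RNA-modification and RNA-binding genes had 3 of 27 (11.1%), which were the m6A readers Prrc2a, Ythdf1 and Ythdf3. Ythdf3 held 2 regions. The one at its gene start scored 164, 158 and 167 in aged replicates 1, 2 and 3, and the one at 63.4% of the span scored 464, 258 and 138 over 1599 bases. Ythdf1, with 53.8, 114 and 71.4 over 1519 bases, was near the lowest listed score in replicate 1. The m5C writers, erasers and readers on the list, Nsun2, Tet1, Alyref and Ybx1 among them, were not members.

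Neuronal wiring, protein turnover and genome maintenance were each represented by a few genes. Axon guidance and Wnt signalling had 2 of 26 (7.69%), the ligand Efnb3 with 124, 221 and 115 and the Wnt transducer Dvl1 with 235, 99.7 and 93.2. DNA repair and senescence had 2 of 18 (11.1%), the checkpoint kinase Atr with 119, 107 and 82.6 and the mismatch repair protein Msh6 with 369.95, 257 and 134. Msh6 was within the length of the shortest list in every aged list and Atr was not. Genes linked to Alzheimer disease had 3 of 23 (13.0%): Rtn3, the clathrin adaptor Picalm with 167, 141 and 109.1, and the integrin activator Fermt2 with 73.5, 68.5 and 59.6. In ubiquitin, proteasome and autophagy it was 2 of 31 (6.45%), the ubiquitin-conjugating enzymes Ube2h with 303, 156 and 204 and Ube2a with 135, 74.1 and 86.5. Membrane traffic had 2 of 37 (5.41%), Trappc4 and the coat protein Copb1 with 75.9, 63.5 and 76.7. Heat shock had 1 of 24 (4.17%), the co-chaperone Bag3 with 99.1, 59.9 and 70.6, calcium signalling 1 of 29 (3.45%), the kinase Camk1 with 68.8, 109.6 and 73.8, and chromatin and transcription 1 of 35 (2.86%), Hoxb3.

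Among cell type markers, astrocyte genes held 2 of the 3 members. They were Aldh1l1, a folate enzyme, with 2 regions scoring 260, 364 and 134 and 84.7, 105 and 60.1 in aged replicates 1, 2 and 3, and Gjb6, the gap junction protein connexin 30, with 102, 96.8 and 98.7. This was 2 of 13 astrocyte markers with a peak (15.4%). The endothelial marker Pecam1 had 77.1, 68.8 and 63.3 and was 1 of 11 (9.09%). No excitatory or inhibitory neuron, oligodendrocyte, precursor, microglia or choroid plexus marker was a member. Of the 13 astrocyte markers, 12, 12 and 12 had a peak in aged replicates 1, 2 and 3 and 8, 7 and 8 in young ones, and of the 13 endothelial and mural markers 9, 8 and 6 against 7, 6 and 8. Of the 13 inhibitory neuron markers, 8, 4 and 7 had a peak in aged lists and 2, 0 and 3 in young ones, and of the 12 excitatory neuron markers 10, 9 and 9 against 7, 8 and 9. Over all genes it was 6777, 6342 and 6450 in aged lists and 5273, 4894 and 5442 in young ones, so higher counts at 18 months were not particular to astrocyte markers. The part of cell makeup in these members was not tested, and in bulk tissue fewer cells of a type and less RNA per cell cannot be told apart.

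Most member genes were marked in 1 place, which the choice of genes without a young peak favours. No share over all genes with a peak was set beside this. In 183 of the 303 genes the region was the gene's only one in any of the 6 lists, 19 genes held 2 member regions and 1 held 3. That gene was Trp53bp2, which encodes a p53-binding regulator of apoptosis. Its regions lay at 59.6%, 93.3% and 99.2% of the gene span, with scores of 87.9, 115 and 76.4, of 129, 111 and 126, and of 63.2, 70.3 and 110.2 in aged replicates 1, 2 and 3. No replicate was highest in all 3. Genes with 2 regions also included Ahcyl2, Atad1, a membrane ATPase, Dctn3, a dynactin subunit, Dcun1d4 and Dnajb2, a co-chaperone.

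The choice of genes without a young peak largely fixes how far the regions lie from young peaks. As a description, the nearest one on the same strand lay at a median distance of 127136 bases (quartiles 54581 and 287590). Of the 318, 308 lay in a single gene span, 10 lay in more than 1, and 4 of these also lay in a span with a young peak. The strand of 71 of the 303 genes was taken from their peaks or was unknown. In 174 regions (54.7%) the peak ends were identical in all 3 aged lists, against 78.8% of 18-month-only regions in marked genes and 72.6% of regions in all 6 lists.

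Peaks of these regions had a higher median width than those of 18-month-only regions in marked genes in each aged list, though 3 lists cannot reach the threshold of 0.05. The median was 355, 361 and 350 bases in aged replicates 1, 2 and 3, against 176, 177 and 178 bases, a difference of 178 ± 6.03 bases (SD over 3 lists, exact sign-flip permutation p = 0.25, the smallest that 3 lists allow). The lists share the same regions, so this spread is not one between independent sets. In marked genes a peak that touched a young peak was not 18-month-only, which the rule makes likelier for wide peaks. How much of the difference comes from this choice was not tested. Against regions in all 6 lists, with a mean of these medians of 229 bases, the difference was 126 ± 6.00 bases (SD over 3 lists). Whole regions ranged from 36 to 5333 bases, with a median of 403. The widest were in Rai1, a nuclear protein, Amigo1, a neuronal adhesion protein, Tppp, a tubulin-binding protein, Synpo, an actin-associated protein of dendritic spines, and Slitrk5. Their widths were 5333, 4598, 4533, 4285 and 4198 bases. Synpo scored 255, 181 and 253 and Tppp 165, 82.1 and 499.9, so that wide regions were not uniformly high in score. With gene spans of 10 to 50 kb the width difference was 117 bases.

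Their share at gene ends was also higher in each aged list. The midpoint fell in the first 1000 bases of the gene span for 17.4%, 17.3% and 17.4% of their peaks in aged replicates 1, 2 and 3 and in the last 1000 bases for 12.8%, 13.4% and 13.5%. In 18-month-only regions of marked genes it was 9.79%, 9.64% and 9.76% for the first and 2.82%, 2.82% and 2.96% for the last 1000 bases. Both ends together differed by 18.0 percentage points (30.6% against 12.6%), and all 3 lists had the higher share in unmarked genes (exact sign-flip permutation p = 0.25, the smallest possible). Spans differed too: the median was 23467 bases in the 303 genes, 30758 in all genes with a peak and 45536 in genes that each of the 6 lists marked. Within spans of 10 to 50 kb the difference was 7.41 percentage points (27.3% against 19.9%, exact sign-flip permutation p = 0.25), a comparison chosen after the data were seen. Regions in all 6 lists had 17.6% of their peaks at the ends over all spans used, and 22.5% within spans of 10 to 50 kb. An aged peak that touched a young peak at an end of a marked gene was not 18-month-only. The part of this in the difference was not tested.

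**Figure D5:**
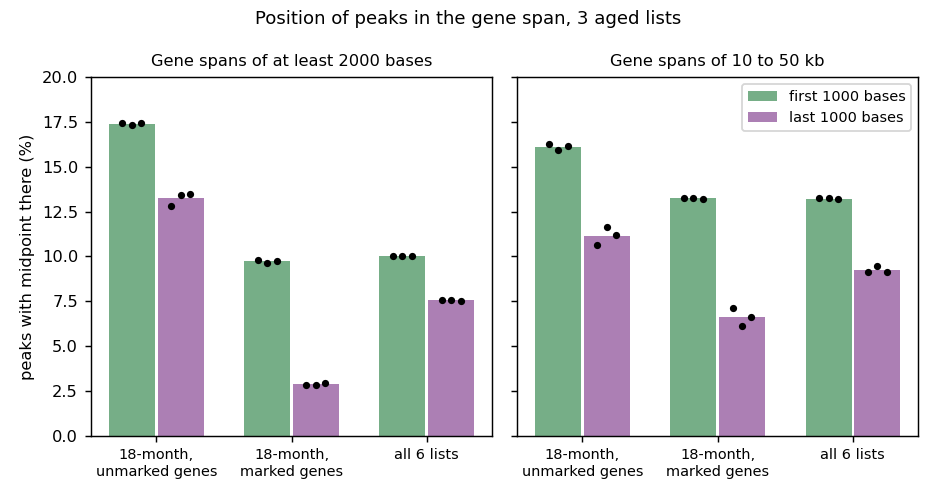
Share of peaks (%) centred in the first (green) or last (purple) 1000 bases of the gene span, for 18-month regions in genes unmarked at 3 months, 18-month-only regions in genes marked in all 6 lists, and regions in all 6 lists. Bars are means over the 3 aged lists and dots are the lists; the shares at both ends are highest in unmarked genes, and the gap is smaller in spans of 10 to 50 kb (right panel).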

How the data were processed

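Peak lists of 6 IP libraries, 3 at 18 months and 3 at 3 months, were used. Per the submitters' processing notes, reads were handled with cutadapt 1.9.3 and HISAT2 2.0.4 on mm10. Peak names in the deposited lists carry the word MACS, with neither version nor settings stated, and per the labels each list belongs to 1 IP library. The score is the authors' deposited value per peak, on an unstated scale. Starts were counted from 1. Gene spans of 21900 protein-coding genes (GRCm38.p6) took their strand from the RefSeq start windows (17492 genes) or from most of their unambiguous peaks (1831), and 2577 had none and accepted both; 99.7% of unambiguous peaks lay on the strand of the window table. A peak belonged to each span it overlapped by 1 base. Positions used spans of at least 2000 bases. Calculations used Python 3.11.15, pandas 2.3.3 and scipy 1.17.1, with the merging and the rule tested on simulated data and against bedtools. Two-sided exact permutation tests compared 3 with 3 lists, and sign-flip tests compared kinds of region over 3 lists. The members and the 27 gene lists were chosen with earlier results of these data known. Genes were named by rule: the 15 with the highest lowest score, those on a list, the 5 nearest the lowest listed score, up to 8 with 2 or more regions, and the 5 widest, without predicted genes. Some genes that meet it are not reported here. A further workbook listed in the labels was not used here.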

Additional observations from a re-analysis of the deposited data

How the results depend on the processing

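With lists of equal length there were 85 regions in 84 genes, their median score was 201, their median width 562 bases and the share at gene ends 36.6%; the opposite kind numbered 147. All alternatives for the opposite kind and for the width and end differences were chosen after seeing the data, as was limiting the aged lists alone. With the aged lists alone limited, the counts were 56 regions in 56 genes and 230. The part of each list from its median score upward gave 235 regions in 228 genes. Their medians were 239.5 and 342 bases, with 26.5% at gene ends and 19 opposite regions. A score of at least 100 gave 293 regions in 281 genes, with 184, 373 bases, 31.5% and 19. Of the 318 regions, only 29 were among the 235 and 71 among the 293, so most of the regions counted there were others. Regions in exactly 1 gene span had a median width of 347 bases. Counting young peaks on either strand gave 366 bases and 31.1%, and lengthening spans by 1000 bases gave 31.6%. Leaving out 1 library, which relaxes the rule, gave 399 to 561 regions in 380 to 528 genes (499, 561 and 555 regions without aged replicate 1, 2 or 3, and 541 without young replicate 3). The ranges were then 89.1 to 108 for the median score, 342.5 to 398 bases, 27.3% to 31.9%, and 78 to 118 opposite regions (100 without aged replicate 1, and 118, 117 and 117 without young replicate 1, 2 or 3). The share found again stayed higher in aged lists, by 25.3 to 39.2 percentage points, under each of the 9 settings tried. The width and end differences kept their direction under 16. Every setting applied the same kind of choice to the same lists, so a constant direction is no independent support. No paired analysis was possible because the labels pair no aged with young samples. Without read counts, a missing young peak cannot be told from low depth.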

Other observations

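Further members were grouped after their values were seen, so these groups are descriptions. Scores are given in the order of aged replicates 1, 2 and 3, and none of these genes had a young peak. Several regions lay in genes of mitochondria: Rhot1, a GTPase of mitochondrial transport along axons (115, 115 and 113), Timmdc1, a complex I assembly factor (138, 116 and 155), Chchd6, a protein of cristae junctions (139, 169 and 80.7), and Ogdh, a citric acid cycle enzyme (56.3, 80.1 and 51.8). Genes of mRNA decay included Cnot7, a deadenylase (109.4, 94.5 and 97.6), Parn, another deadenylase (102, 65.6 and 51.3), Exosc9, an exosome subunit (79.2, 157 and 148), and Dis3l, an exosome nuclease (204, 164 and 71.6). The Rhot1 and Cnot7 values were the most even.

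Neuronal members outside the lists included Chrnb2, a nicotinic acetylcholine receptor subunit (177, 286 and 183), Nmnat2, an enzyme that maintains axons (191, 173 and 156), Kcnip3, a channel-interacting calcium sensor (113.5, 242 and 241), and Rgs14, a signalling regulator enriched in hippocampal area CA2, with 2 regions (65.5, 57.1 and 81.9; 57.7, 74.9 and 52.9). Chrnb2 and Nmnat2 exceeded 150 in every aged list, while Rgs14 stayed below 100. Ranked by the lowest of the 3 scores, the predicted gene Gm41291 came first (2366, 2308 and 2508), whose region also lay in the span of Mtdh, a gene with peaks in 3 young lists. The strand of Gm41291 was unknown and its span accepted both strands, so the same-strand condition was not checked for it. Gm13276 and Gm13278, predicted genes with equal spans of 1462 bases, held regions at 74.4% of their length (403, 552 and 385 and 122, 177 and 114). Their sequences were not compared, and the assignment of reads between them is uncertain.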
